A study of Mus musculus with 18 samples.

Results

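The immediate-early response genes described here are Fos, Fosb, Jun, Junb, Atf3, Egr1, Nr4a1, Ier2, Ier3 and Dusp1. They were taken by name, with no measured value in the rule, and are 10 of the 33440 features that the 18 libraries share. All 10 passed the filter on low counts in both experiments. In the first experiment, RNA on tagged adipocyte ribosomes was pulled down by TRAP (translating ribosome affinity purification) from frozen epididymal white adipose tissue of FI3KO and WT mice. FI3KO mice carry floxed Irf3 alleles and Cre under the adiponectin promoter, which is active in adipocytes. FI3KO and WT mice both carried the NuTRAP allele that tags the ribosomes, were of the C57BL/6 strain, and ate HFD for 8 weeks at thermoneutrality (30 °C), with 6 libraries in each group. In the second experiment, adipocytes were differentiated from the inguinal stromal vascular fraction (SVF) of C57BL/6 mice with an IRF3-2D allele, a constitutively active form of IRF3 that stays silent until Cre acts. Transduction on day 6 with AAV-GFP-Cre gave FI3OE and with AAV-GFP gave WT, and cells were harvested on day 8, with 3 libraries in each group. These WT cultures therefore carried the unrecombined allele, and FI3OE differed by Cre in addition to active IRF3. The labels do not say which animals or cultures the replicates came from, so p-values measure the spread between these libraries, which may in part be technical.

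Immediate-early genes are transcribed within minutes of a stimulus such as a growth factor, a cytokine or mechanical stress, without new protein synthesis. Serum response factor with its ternary complex partners, CREB and NF-kB switch them on from proteins already present in the cell. Their messages decay quickly, so their level in adipose tissue depends both on signalling in the living cells and on what happens to the tissue between dissection and freezing.

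The stretches below show motif matches upstream of members that were lower in FI3KO than in WT TRAP libraries of replicates 3 to 6 (Fos, Fosb, Nr4a1), of the only member with a complete cyclic AMP response element (Dusp1), and of a member that goes the other way (Ier3). They come from RefSeq (GRCm38.p6), read 5′ to 3′ on the strand of the gene, with motif matches in capitals. The Fos stretch is chr12:85473750-85473870 on the plus strand, from -140 to -20 relative to the transcription start. Its capitals mark the core of the cyclic AMP response element (TGACG) at 2 places and a TATA box (TATAAA).
Fos: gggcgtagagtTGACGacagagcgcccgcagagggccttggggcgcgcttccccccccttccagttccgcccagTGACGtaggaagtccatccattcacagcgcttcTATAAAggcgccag
The Fosb stretch is chr7:19310075-19310125 on the minus strand, from -80 to -30, with the same core and an EGR site (GCGNGGGCG).
Fosb: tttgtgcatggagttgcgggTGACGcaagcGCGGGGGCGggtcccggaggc
The Nr4a1 stretch is chr15:101266766-101266816 on the plus strand, from -80 to -30, with an EGR site between 2 copies of the core, all 3 on the opposite strand.
Nr4a1: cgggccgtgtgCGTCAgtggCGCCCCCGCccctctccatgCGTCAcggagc
The Dusp1 stretch is chr17:26508592-26508672 on the minus strand, from -200 to -120, with a further core and the complete element (TGACGTCA), which holds the core on both strands.
Dusp1: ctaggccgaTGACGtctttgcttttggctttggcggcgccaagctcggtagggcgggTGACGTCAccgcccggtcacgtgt
The Ier3 stretch is chr17:35821595-35821693 on the plus strand, with an NF-kB site on the opposite strand.
Ier3: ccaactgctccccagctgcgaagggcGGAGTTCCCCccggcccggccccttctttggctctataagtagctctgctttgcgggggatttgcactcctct

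A promoter of 250 bases before to 50 bases after the start was found for 8 of the 10 members, with none for Egr1 and Ier2. On both strands, the core TGACG was in 6 of the 8 (Fos, Fosb, Junb, Atf3, Dusp1 and Nr4a1) and in 20.8% of the 32851 promoters of the table. The EGR site was in 2 of the 8 (Fosb and Nr4a1, 5.55% of all promoters) and the NF-kB site in 4 (Fos, Fosb, Ier3 and Nr4a1, 8.46%). The letters of the TATA box were in 2 (Fos and Junb, 13.6%) and the complete cyclic AMP response element in 1 (1.79%). The TATAAA of Fos began at -33, but that of Junb began at 1, on the transcription start itself. No member promoter matched the CArG box bound by serum response factor (1.63% of all promoters), the AP-1 site TGANTCA (7.81%) or the core of IRF sites, GAAANNGAA (8.56%), which says only that these letters are not in the window. A match is a description of the letters, not a site shown to be bound.

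TRAP libraries held 25259869 to 40490283 estimated reads and SVF-derived libraries 21541334 to 36932452. Irf3 itself lay between 12.5 and 19.97 CPM (reads of a gene relative to its library size, scaled by TMM) in FI3KO and between 16.4 and 22.8 in WT TRAP libraries, so the groups overlapped. Its log2 fold change was -0.35 (SE 0.11, edgeR adjusted p = 0.0198). In summed TPM the order was the reverse, with 55.1 to 93.5 in FI3KO and 37.8 to 47.3 in WT, because reads were assigned to other transcripts. The 1429-base coding transcript had 0 reads in all 6 FI3KO libraries and 164 to 388 in WT libraries, while a coding transcript of 369 bases had 90.0 to 175 in FI3KO and 0 to 7.65 in WT. The gene total therefore depends on the unit, while the 1429-base transcript separated all 12 libraries by their genotype labels. In FI3OE the Irf3 level was 91.4 to 102 CPM against 56.8 to 57.9 in WT, a log2 fold change of 0.73 (SE 0.05, adjusted p = 3.3e-07). Adipoq, the gene of the adipocyte hormone adiponectin, was at 1590 CPM or more in every TRAP library and at 741 or more in every SVF-derived library, where Lep, the gene of the adipocyte hormone leptin, was at only 12.5 to 16.4 CPM. Within WT, TRAP replicates 1 and 2 were the closest pair of all, 1.72 times counting noise against 2.92 to 18.7 for the other 14 WT pairs. They differed by more than counting noise and were kept as 2 samples, and results with them summed are given where they matter.

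The members were made at very different levels. Per length, as TPM summed per gene, the median of 6 WT TRAP libraries was 67.9 for Dusp1, 57.3 for Fos, 53.3 for Jun, 26.1 for Ier2, 24.6 for Junb and 17.1 for Egr1. It was 8.05 for Fosb, 5.86 for Ier3, 2.66 for Atf3 and 2.65 for Nr4a1. The ranges of neighbours in this order overlapped except between Jun and Ier2 and between Ier3 and Atf3. In FI3KO the order by median began with Jun (84.5 TPM), Dusp1 (28.0), Ier2 (17.8) and Fos (15.2) and ended with Nr4a1 (1.67) and Atf3 (1.08), and every pair of neighbours overlapped. In SVF-derived WT adipocytes Junb (52.1 TPM) and Jun (50.6) led, Atf3 stood at 15.6 and Fosb came last at 0.443. Per library, Fosb reads were few, with 2 to 157 in FI3KO, 19 to 302 in WT TRAP and 10 to 41 in SVF-derived libraries, and Salmon spread them over 7 transcripts. Atf3 had as few as 7 reads in a TRAP library. Per the labels, double-stranded cDNA was made into libraries with the Nextera XT kit, which does not mark the strand, so reads of Jun cannot be told apart from those of the antisense gene Junos where the genes overlap, and the same holds for Junb with Prdx2 and Dusp1 with Ergic1.

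Adipocyte knockout of Irf3 was compared with WT in the 12 TRAP libraries. Over all 6 replicates, Fos, Junb and Nr4a1 fell in FI3KO past both cutoffs, an adjusted p of at most 0.05 and a fold change of at least 2. These 3 of 10 members stand beside 4.87% of the 13624 genes tested that were called lower, and 6.61% called in either direction. On the adjusted p alone, 4 of 10 members passed, with Ier3 higher, close to the 37.4% of all genes that passed. The median log2 fold change of the members was -0.95, against 0.02 over all genes tested. Only for Junb were the groups apart, and 16% of all genes had groups that did not overlap.

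**Figure D1:**
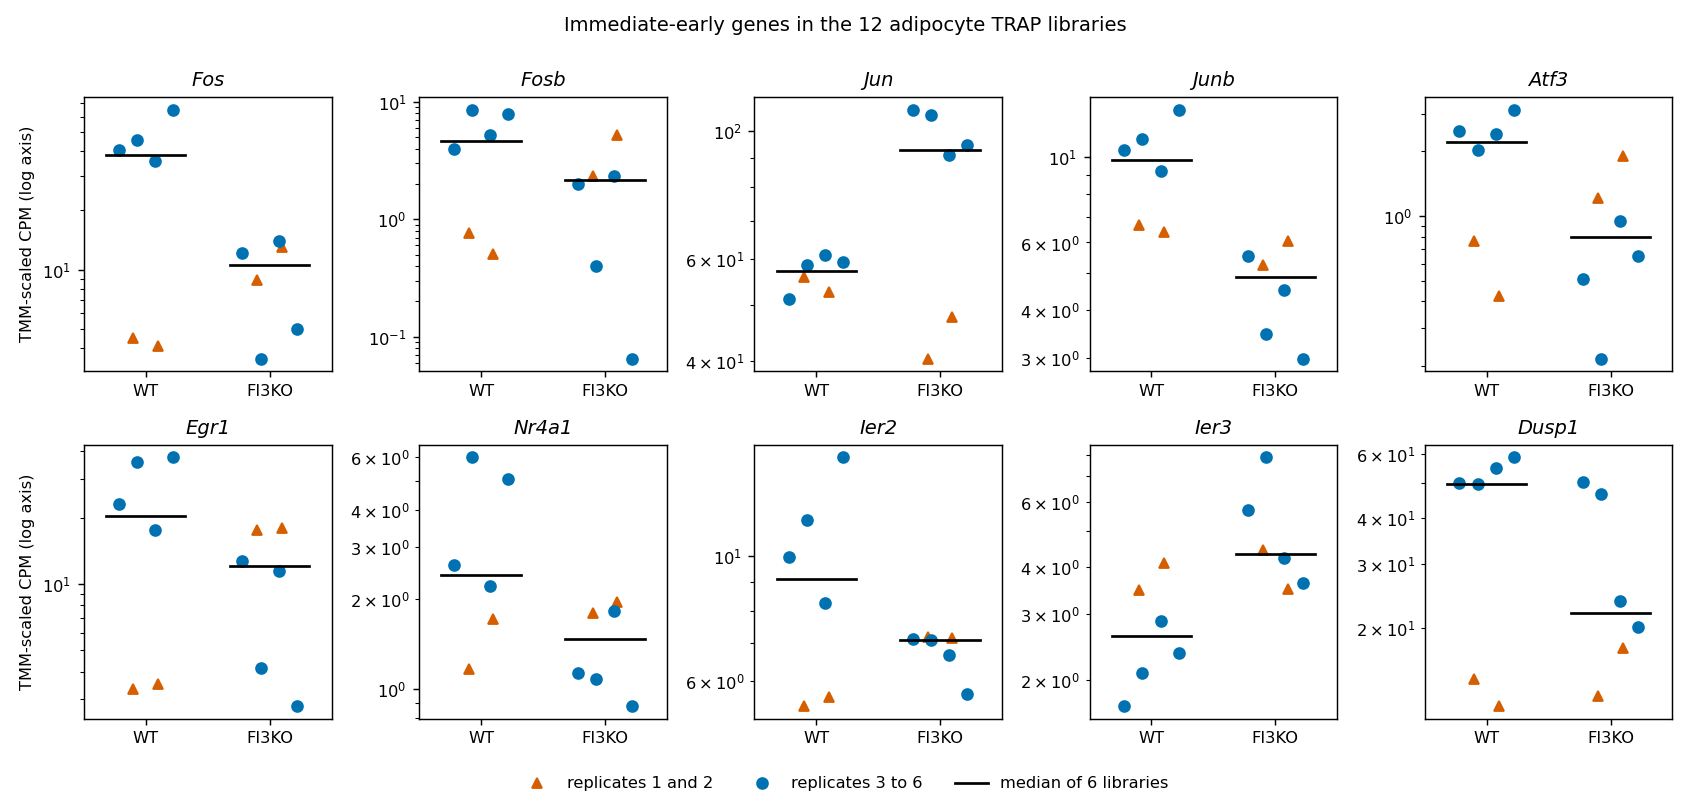
TMM-scaled CPM (log axis, scaled per panel) of the 10 members in WT and FI3KO TRAP libraries. Triangles are replicates 1 and 2, circles replicates 3 to 6, and bars the median of 6 libraries. WT replicates 1 and 2 lie below WT replicates 3 to 6 for every member but Jun and Ier3, and FI3KO replicates 3 to 6 lie above the other libraries for Jun.

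The AP-1 transcription factors are dimers of FOS, JUN and ATF family proteins. Fos (chr12:85473890-85477273) ranged from 3.53 CPM through a median of 10.5 to 13.9 in FI3KO and from 4.09 through 38.2 to 65.2 in WT. The WT libraries fell into a low pair, replicates 1 and 2, within the FI3KO range, and 4 libraries above every FI3KO library. The log2 fold change was -1.79 (SE 0.61, edgeR adjusted p = 0.0343), and it missed the adjusted p in 8 of the 12 fits with a library left out (highest 0.0874). Junb (chr8:84974484-84978718), whose product is a weaker activator than that of Jun, ranged from 2.99 through 4.88 to 6.05 CPM in FI3KO and from 6.40 through 9.82 to 13.3 in WT. Every FI3KO library was below every WT library, though the gap to WT replicates 1 and 2 was small. Its log2 fold change was -1.04 (SE 0.21, adjusted p = 0.00269), and its adjusted p was at most 0.00798 with any library left out.

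Fosb (chr7:19302696-19310051), a FOS paralog, ranged from 0.0650 through 2.18 to 5.22 CPM in FI3KO and from 0.504 through 4.63 to 8.63 in WT, and the groups overlapped (log2 fold change -1.13, SE 0.77, adjusted p = 0.268). Atf3 (chr1:191170296-191218039), a stress-induced repressor that can dimerize with JUN, was at 0.217 to 1.90 CPM in FI3KO and 0.425 to 3.13 in WT (log2 fold change -1.05, SE 0.52, adjusted p = 0.128). Jun (chr4:95049034-95052222), the main partner of FOS, was the exception in this family. It ranged from 40.3 through 92.9 to 109 CPM in FI3KO and from 51.1 through 57.2 to 61.0 in WT. FI3KO replicates 1 and 2 lay below every WT library and replicates 3 to 6 above every WT library, and the log2 fold change of 0.53 (SE 0.22) had an adjusted p of 0.0679.

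Among the other transcription regulators, Nr4a1 (chr15:101254269-101274795), an orphan nuclear receptor, was at 0.877 to 1.96 CPM in FI3KO and 1.17 to 6.00 in WT. The groups overlapped through WT replicates 1 and 2, and the log2 fold change was -1.12 (SE 0.38, adjusted p = 0.0347, highest 0.0972 without WT replicate 4). Egr1, a zinc-finger activator induced through serum response factor, ranged from 2.79 through 12.1 to 18.03 CPM in FI3KO and from 3.34 through 20.4 to 37.7 in WT, and its log2 fold change of -0.87 (SE 0.61) had an adjusted p of 0.278. Ier2 (chr8:84661331-84662852), a small nuclear protein gene, had 5.69 to 7.18 CPM in FI3KO and 5.42 to 15.0 in WT (log2 fold change -0.45, SE 0.22, adjusted p = 0.120).

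The remaining members encode a brake on signalling and a regulator of cell survival. Dusp1 (chr17:26505590-26562128), a phosphatase that inactivates MAP kinases, spanned 13.1 to 50.3 CPM in FI3KO and 12.2 to 58.8 in WT, and the groups overlapped (log2 fold change -0.48, SE 0.43, adjusted p = 0.405). Ier3 (chr17:35821684-35822923), an NF-kB target that affects cell survival, went the other way. It ranged from 3.49 through 4.35 to 7.89 CPM in FI3KO and from 1.70 through 2.62 to 4.11 in WT, and rose on the adjusted p (log2 fold change 0.82, SE 0.25, adjusted p = 0.0197) without reaching the 2-fold cutoff.

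The calls of Fos and Nr4a1 rested on few libraries. Junb passed the adjusted p with any library left out (log2 fold change -1.14 to -0.92), and lost its call only where the fold was under 2. No member met both cutoffs without FI3KO replicate 4, FI3KO replicate 6, WT replicate 4 or WT replicate 6, and 1 member, Junb, did without FI3KO replicate 3. With the replicate set (1 and 2 against 3 to 6) as a term, Junb alone was called, at log2 fold changes of -1.355 for Fos and -1.03 for Nr4a1. With the 4 closest pairs of libraries each summed to 1 sample, no member was called. The log2 fold changes were then -1.78 for Fos, -0.94 for Nr4a1 and -0.98 for Junb (edgeR adjusted p = 0.0176).

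In WT, replicates 1 and 2 stood apart from replicates 3 to 6, and the labels give no date, tissue handling or sequencing run for the sets. In FI3KO they did not stand apart over all genes, since replicate 2 was closer to replicate 3 (8.59 times counting noise) than to replicate 1 (10.5). The split was proposed with results of these data known, so the difference between the sets is described without a test, and p-values within or between the sets are no independent evidence for it. In WT, 7 of 10 members were at least 2-fold higher in replicates 3 to 6 than in replicates 1 and 2 (4.33% of all genes). Fos was at 4.48 and 4.09 CPM in WT replicates 1 and 2, and at 40.8, 45.6, 35.7 and 65.2 CPM in replicates 3 to 6, a fitted log2 difference of 3.45. The difference was 3.36 for Fosb, 3.06 for Egr1, 2.09 for Atf3, 2.00 for Dusp1, 1.45 for Nr4a1 and 1.02 for Ier2. It was 0.76 for Junb, 0.09 for Jun and -0.76 for Ier3, so Jun and Ier3 did not share the pattern of the others.

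FI3KO libraries did not show the same difference between the sets. In FI3KO, Fosb (log2 difference -1.64), Atf3 (-1.40) and Egr1 (-1.19) were at least 2-fold lower in replicates 3 to 6, as were 8.79% of all genes. Jun and Dusp1, both at 1.19, were at least 2-fold higher, as were 0.69% of all genes. Egr1 was at 17.5 and 18.03 CPM in FI3KO replicates 1 and 2 and at 12.7, 4.15, 11.4 and 2.79 CPM in replicates 3 to 6. Dusp1 was at 13.1 and 17.6 CPM in replicates 1 and 2, at 50.3 and 46.7 in replicates 3 and 4, and at 23.7 and 20.1 in replicates 5 and 6. Dusp1 was thus the only member at least 2-fold higher in replicates 3 to 6 in both genotypes.

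The difference between FI3KO and WT was set against itself in the 2 sets, for a split that was already known to separate these libraries. The interaction term, the effect in replicates 3 to 6 minus that in 1 and 2, met an adjusted p of at most 0.05 for 9 of 10 members, against 26.5% of all genes tested. It was -5.00 for Fosb (SE 1.12, adjusted p = 0.00673), -4.25 for Egr1 (SE 0.73, adjusted p = 0.00136), -3.79 for Fos (SE 0.66, adjusted p = 0.00145) and -3.49 for Atf3 (SE 0.62, adjusted p = 0.00176). It was -2.05 for Nr4a1, -1.21 for Junb and -1.13 for Ier2, and had the opposite sign for Ier3 (1.20) and Jun (1.11, SE 0.14, adjusted p = 0.000184). Dusp1 was the member that missed it (-0.81, SE 0.45, adjusted p = 0.204). With WT replicate 2 left out, 5 members passed (Fos, Jun, Egr1, Atf3 and Ier2). With WT replicates 1 and 2 summed as 1 sample, 7 passed, and Ier3 and Nr4a1 did not. The set of libraries and whatever else distinguishes those animals or preparations cannot be told apart.

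**Figure D2:**
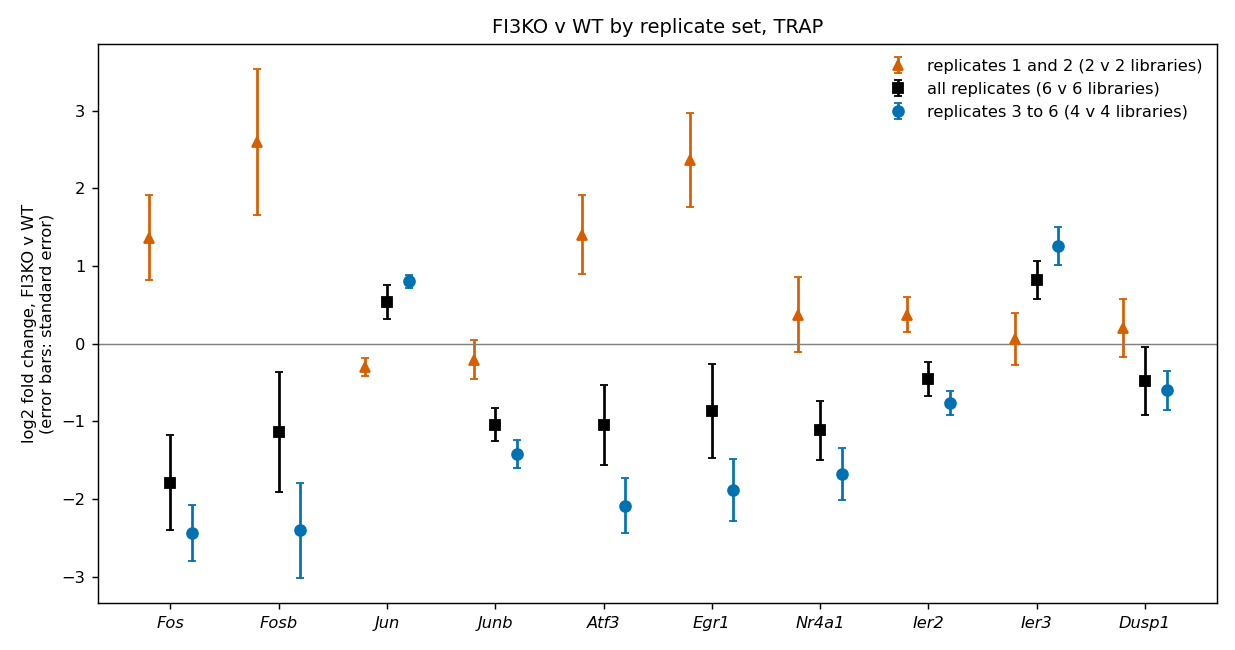
Fitted log2 fold change of FI3KO against WT for each member in replicates 1 and 2, in all replicates, and in replicates 3 to 6, with standard errors. Fos, Fosb, Atf3 and Egr1 lie above 0 in replicates 1 and 2 (from 1.36 to 2.60) and below 0 in replicates 3 to 6 (from -1.88 to -2.43), while Jun and Ier3 lie above 0 in replicates 3 to 6.

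Within replicates 3 to 6, 6 members fell in FI3KO past both cutoffs (9.25% of all genes) and Ier3 rose (4.03% of all genes). Fos was at 12.2, 3.53, 13.9 and 4.97 CPM in FI3KO, all below the 35.7 to 65.2 CPM of WT, a log2 fold change of -2.43 (SE 0.36, adjusted p = 0.000127). Fosb was at 2.01, 0.402, 2.35 and 0.0650 CPM in FI3KO and at 4.02, 8.63, 5.25 and 7.95 in WT (-2.40, SE 0.61, adjusted p = 0.00544). Atf3 was at 0.511, 0.217, 0.950 and 0.650 CPM against 2.49, 2.03, 2.41 and 3.13 (-2.08, SE 0.35, adjusted p = 0.000355). FI3KO replicates 4 and 6 were the lowest for Fos, Fosb and Egr1, although replicates 3 and 4, and likewise 5 and 6, were the closest pairs of FI3KO libraries over all genes.

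Egr1 fell by 1.88 on the log2 scale (SE 0.40, adjusted p = 0.00172), Nr4a1 by 1.68 (SE 0.33, adjusted p = 0.00111) and Junb by 1.42 (SE 0.17, adjusted p = 2.88e-05) in replicates 3 to 6. Ier2 fell by 0.76 and passed the adjusted p alone (0.00135). Jun, at 109, 107, 91.1 and 94.8 CPM in FI3KO against 51.1 to 61.0 in WT, rose by 0.80 (SE 0.08, adjusted p = 5.30e-06), which is under 2-fold. Ier3, at 5.69, 7.89, 4.25 and 3.64 CPM against 1.70, 2.09, 2.87 and 2.36, rose by 1.26 (SE 0.24, adjusted p = 0.000858). In 9 of 10 members, all but Dusp1, the FI3KO and WT libraries of replicates 3 to 6 did not overlap, as was the case for 46.6% of all genes. The same count of 7 members was called with any library left out, with the replicate block and with the closest pairs summed.

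Within replicates 1 and 2, in the fit of all 12 libraries, Egr1 was the only member that passed the adjusted p and met both cutoffs (0.771% of all genes were called higher). Egr1 was at 17.5 and 18.03 CPM in FI3KO and 3.34 and 3.53 in WT, a log2 fold change of 2.37 (SE 0.60, adjusted p = 0.0415). It lost the adjusted p in 6 of 12 fits with a library left out, those without FI3KO replicate 1 or 2 or WT replicate 1, 2, 4 or 6 (highest 0.215), and when WT replicates 1 and 2 were summed (0.209). In a fit of replicates 1 and 2 alone, which takes its spread from 4 libraries, among them WT replicates 1 and 2, at 1.72 times counting noise the closest TRAP pair, 3 members met both cutoffs, all higher in FI3KO (0.833% of all genes were called higher in that fit): Egr1 (adjusted p = 0.00552), Fos (0.0369) and Fosb (0.0492). Fosb was at 2.35 and 5.22 CPM against 0.769 and 0.504 (log2 fold change 2.60, SE 0.93, adjusted p = 0.103), and Fos at 8.90 and 13.01 against 4.48 and 4.09 (1.36, SE 0.55, adjusted p = 0.131). Atf3 was at 1.22 and 1.90 CPM against 0.769 and 0.425 (1.41, SE 0.51, adjusted p = 0.104), and Jun at 40.3 and 47.6 against 55.8 and 52.7 (-0.30, SE 0.11, adjusted p = 0.116).

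Across the 12 TRAP libraries most members varied together, and Jun and Ier3 did not follow them. Given as a description, with no test since libraries of 1 group and set are alike, Pearson's r of log2 CPM was 0.944 between Fosb and Egr1, 0.916 between Fos and Egr1, 0.891 between Fos and Ier2 and 0.884 between Fos and Atf3. Jun had negative r with Fos (-0.27), Fosb (-0.45), Junb (-0.55) and Atf3 (-0.59), and Ier3 with all members but Jun, down to -0.86 with Atf3. Of the genes tested that are not members, those most like the mean of the members' centred log2 CPM over the 12 libraries were Adm (r = 0.973, and 0.977 within the 8 libraries of replicates 3 to 6), Eml1 (0.931 and 0.940), Adam17 (0.924 and 0.931), Timeless (0.914 and 0.906) and Vstm2a (0.900 and 0.905). Adm, the gene of the vasodilator peptide adrenomedullin, was at 0.568 and 0.478 CPM in WT replicates 1 and 2, at 2.49 to 3.63 in WT replicates 3 to 6, and at 0.292 to 1.30 in FI3KO.

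The other immediate-early genes of 5 lists were read beside the members. Of 41 tested of 48 in TRAP, 7 were higher and 7 lower in FI3KO on the adjusted p, near the 37.4% of all genes that passed in either direction, and those past both cutoffs were Egr2 (log2 fold change -2.05), Ccn1 (-1.29), Klf4 (-1.27), Maff (-1.22) and, higher, Id1 (1.46). Egr2 and Maff are family members of Egr1 and of the AP-1 factors, Klf4 is a zinc-finger regulator, Ccn1 a secreted matrix protein and Id1 an inhibitor of helix-loop-helix factors. Within replicates 3 to 6, 20 were lower and 8 higher on the adjusted p (25.3% and 26.6% of all genes), and the 12 that fell past both cutoffs included Arc (-3.38), Egr2 (-3.32), Socs3 (-2.28), Maff (-2.18), Klf4 (-1.92) and Plk2 (-1.76). Within replicates 1 and 2, 8 were higher and 0 lower on the edgeR adjusted p (17 of 41 had an unadjusted p under 0.05, and 2.23% of all genes were higher), with Arc (2.86), Ier5 (1.91) and Gadd45g (1.49) past both cutoffs. The interaction term passed for 20 of 41, 19 of them negative, and for 26.5% of all genes.

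Transcription factors upstream of these genes were read from a list of 8. Of these genes for serum response factor partners, myocardin-related factors and CREB relatives, none was called over all 6 replicates. Creb1 (log2 fold change 0.39, edgeR adjusted p = 0.00272) and Atf1 (0.38, adjusted p = 0.00242) alone passed the adjusted p, both higher in FI3KO. Of all genes tested, 37.4% passed it in either direction. Within replicates 3 to 6, 5 of the 8 were higher and 1 lower on the adjusted p (26.6% and 25.3% of all genes). The lower one, Elk3, was also called (-1.02).

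Like the mean of the members, the summed markers of macrophages and of fibroblasts were highest in WT replicates 3 to 6. Those of endothelial cells were highest in FI3KO replicates 1 and 2. The sum of 18 macrophage markers was 45.1 and 44.5 CPM in WT replicates 1 and 2, 82.5 to 116 in WT replicates 3 to 6, 42.4 and 53.8 in FI3KO replicates 1 and 2, and 18.1 to 21.3 in FI3KO replicates 3 to 6. No macrophage marker was at 0 in any of these 4 groups, and 14 of the 16 tested were called lower and 1 higher in FI3KO over all replicates, and 15 and 1 within replicates 3 to 6. Adgre1, which defines macrophages, was at 0.371 to 0.975 CPM in FI3KO replicates 3 to 6 and at 3.98 to 7.92 in WT. The sum of 8 fibroblast and preadipocyte markers was 978 to 984 CPM, 1483 to 2184, 1002 to 1085 and 549 to 924 in the same 4 groups. On the adjusted p, 6 of 8 were lower and 1 higher in FI3KO replicates 3 to 6. Within WT, 2 of the 8 were at least 2-fold higher and 1 at least 2-fold lower in replicates 3 to 6. Pdgfra, a defining gene of the list, did not follow the sum. It was highest in FI3KO replicates 1 and 2, at 3.90 to 4.82 CPM against 2.285 to 3.54 in WT replicates 3 to 6. Endothelial markers summed to 75.6 and 114 CPM in FI3KO replicates 1 and 2, to 26.7 to 40.3 in FI3KO replicates 3 to 6, to 38.9 and 41.1 in WT replicates 1 and 2 and to 24.7 to 46.7 in WT replicates 3 to 6. Mesothelial markers summed to 7.09 and 19.4 CPM, 4.24 to 19.4, 8.32 and 7.11, and 4.87 to 37.0 CPM in the same order, and 5 of 7 tested were at least 2-fold higher in WT replicates 3 to 6 than in WT replicates 1 and 2. Between FI3KO and WT over all replicates, 0 of 7 passed the edgeR adjusted p and 0 had an unadjusted p under 0.05. Of the adipocyte genes, Adipoq was at 3198 to 3221 CPM in WT replicates 1 and 2, 1590 to 1935 in WT replicates 3 to 6, 2208 to 2750 in FI3KO replicates 1 and 2 and 2682 to 3880 in FI3KO replicates 3 to 6. Lep was lower in FI3KO over all replicates (log2 fold change -1.63, SE 0.18, edgeR adjusted p = 0.0001), at 2439 to 4039 CPM against 6662 to 12710. It was the only one of the 12 adipocyte markers lower on the adjusted p. Plin1 (log2 fold change 0.26), Pnpla2 (0.63), Fabp4 (0.30), Cebpa (0.51) and Retn (0.96) were higher on it. The 12 markers summed to 42040 to 50690 CPM in FI3KO and 38030 to 49230 in WT. Fewer cells of a type and less RNA per cell cannot be told apart in such samples, and the part of these cells and of the adipocyte genes in the members' differences was not tested.

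The mean of the 10 members' log2 CPM, each member centred on its own mean over the 12 TRAP libraries, was -0.73 and -0.83 in WT replicates 1 and 2, and 0.58, 0.94, 0.60 and 1.13 in WT replicates 3 to 6. It was -0.14 and 0.15 in FI3KO replicates 1 and 2, and 0.03, -0.66, -0.01 and -1.05 in FI3KO replicates 3 to 6, with no test against the markers. Heat shock and dissociation-stress genes, which also respond to handling, summed to 1794 to 1804 CPM in WT replicates 1 and 2, 2194 to 2439 in WT replicates 3 to 6, 1841 to 1846 in FI3KO replicates 1 and 2 and 1929 to 2039 in FI3KO replicates 3 to 6. Hspa1a and Hspa1b, which add little to this sum, were highest in FI3KO replicates 1 and 2, at 1.364 to 1.678 and 2.595 to 2.685 CPM. In WT replicates 3 to 6 they were at 0.400 to 1.115 and 1.262 to 2.114 CPM. Over all replicates, 6 of the 10 genes had a positive and 4 a negative log2 fold change in FI3KO. None of the 10 heat shock genes was called over all replicates, and Hspb1 (log2 fold change -0.72) and Hsph1 (-0.55) were lower in FI3KO on the adjusted p. Within replicates 3 to 6, Hspb1 was called lower (-1.02). Epididymal markers summed to 1.594 and 1.497 CPM in FI3KO replicates 1 and 2 and to at most 0.301 in the other 10 TRAP libraries. Crisp1, a gene of the epididymis, was at 0.839 to 1.06 CPM in those replicates and at 0 in the other 10, and the part of this tissue in the members' differences was not tested.

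**Figure D3:**
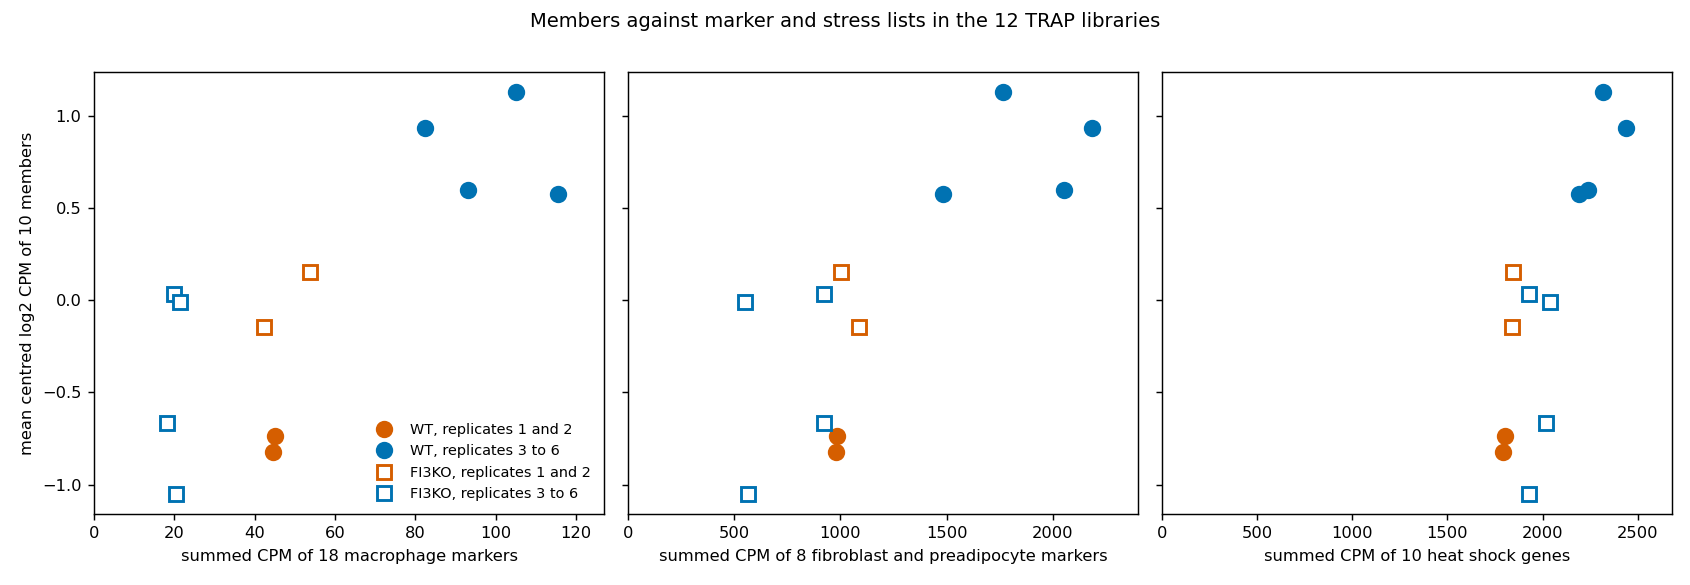
Mean centred log2 CPM of the 10 members against the summed CPM of macrophage markers, of fibroblast and preadipocyte markers and of heat shock genes, for 12 TRAP libraries. Filled circles are WT, open squares FI3KO, and colour gives the replicate set. The 4 libraries of WT replicates 3 to 6 lie highest on every axis, with members' means of 0.58 to 1.13.

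Constitutively active IRF3 was compared with the unrecombined allele in SVF-derived adipocytes. Of the 10 members, 7 rose in FI3OE on the adjusted p (20.2% of the 16105 genes tested did) and none reached 2-fold, while 3.62% of all genes met both cutoffs. With edgeR, 0 members met both cutoffs, with 7 at an unadjusted p under 0.05, and the DESeq2 Wald test also called 0. In 8 of 10 members all FI3OE libraries were above all WT libraries (25.7% of all genes), and the exceptions were Fosb and Jun. The median log2 fold change of the members was 0.39, against 0.00 over all genes.

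Fos and Atf3 had the largest fold changes of the members that rose. Fos was at 13.3, 13.1 and 13.2 CPM in FI3OE and at 7.84, 7.32 and 7.72 in WT, a log2 fold change of 0.79 (SE 0.08, adjusted p = 1.55e-05). Atf3 was at 23.7, 26.3 and 20.4 CPM against 14.1, 12.7 and 14.2 (0.77, SE 0.09, adjusted p = 5.97e-05). With any library left out, the adjusted p of Fos was at most 0.000168 and that of Atf3 at most 0.000634.

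Ier3 was at 8.66, 10.6 and 9.002 CPM in FI3OE and at 5.70, 8.29 and 6.26 in WT (log2 fold change 0.49, SE 0.14, adjusted p = 0.0186). Nr4a1 was at 8.45, 7.33 and 9.08 CPM against 6.07, 6.16 and 6.62 (0.40, SE 0.11, adjusted p = 0.0140), and Dusp1 at 36.5, 40.0 and 35.7 against 31.1, 26.1 and 29.0 (0.38, SE 0.07, adjusted p = 0.00114). FI3OE was the higher group for each, with gaps between the groups narrow beside the spread for Ier3 and Nr4a1. Egr1 was at 22.2, 23.8 and 27.6 CPM against 19.9, 19.2 and 22.1 (0.27, SE 0.08, edgeR adjusted p = 0.0252), and Junb at 26.2, 26.5 and 27.3 against 23.1, 23.0 and 23.5 (0.20, SE 0.05, adjusted p = 0.00800). For Egr1 the gap was also narrow, with 22.23 CPM in the lowest FI3OE library and 22.09 in the highest WT library.

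**Figure D4:**
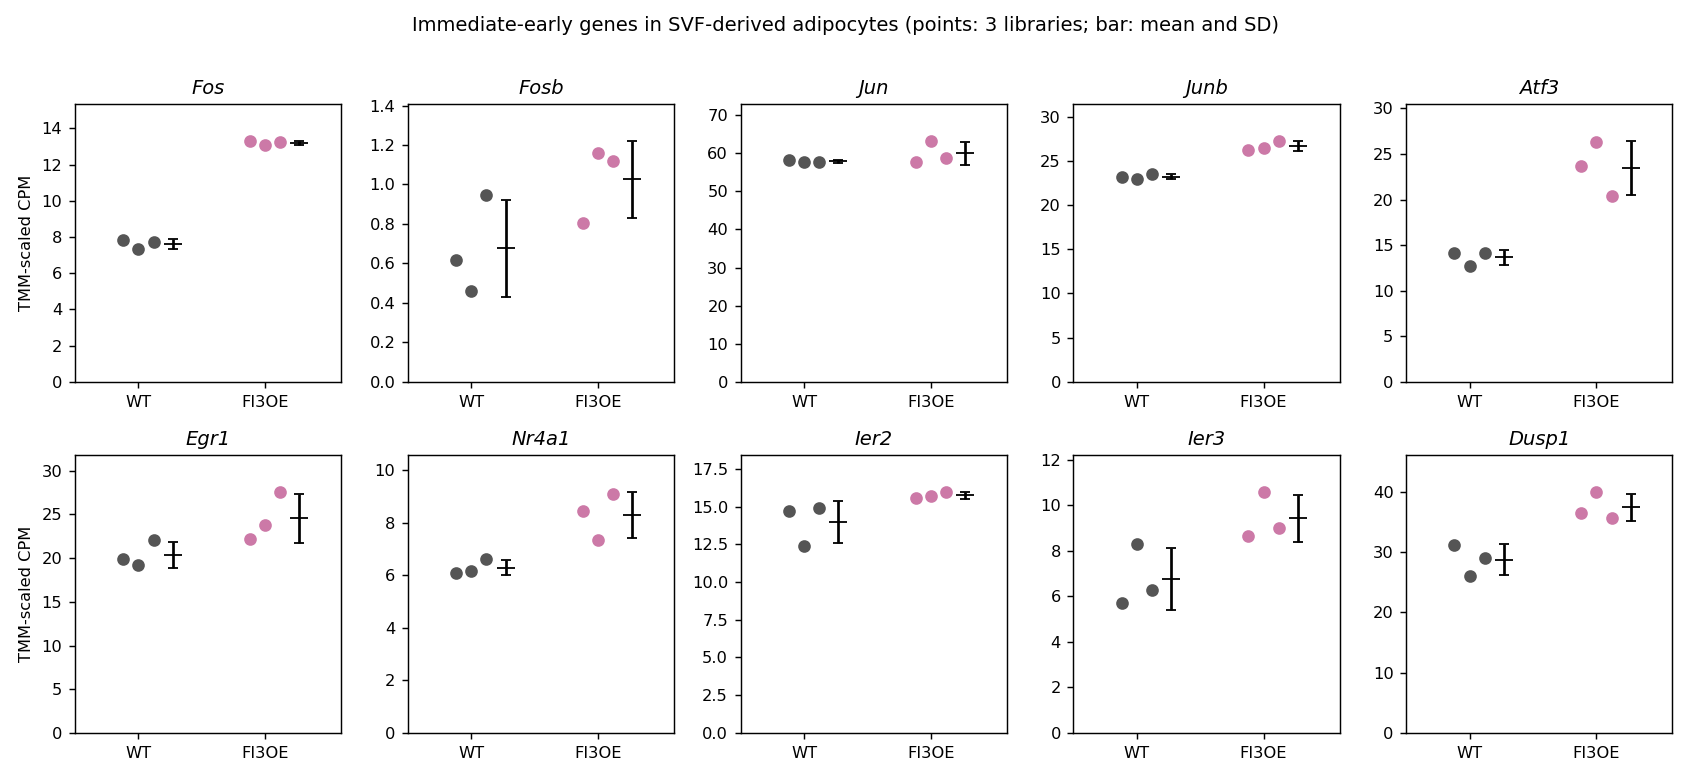
TMM-scaled CPM of the 10 members in SVF-derived WT and FI3OE adipocytes. Points are 3 libraries a group, and the bar beside them is the mean with its SD. FI3OE libraries all lie above the WT libraries for every member but Fosb and Jun, and Fos has 7.32 to 7.84 CPM in WT and 13.1 to 13.3 in FI3OE.

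The other 3 members did not pass. Fosb was at 0.803, 1.16 and 1.12 CPM in FI3OE and at 0.619, 0.463 and 0.945 in WT, with 10 to 41 reads a library (log2 fold change 0.60, SE 0.32, adjusted p = 0.167). Ier2 was at 15.6, 15.7 and 16.0 CPM against 14.7, 12.4 and 14.9 (0.17, SE 0.08, adjusted p = 0.126), and Jun at 57.7, 63.3 and 58.9 against 58.3, 57.6 and 57.7 (0.05, SE 0.04, adjusted p = 0.401). With an offset for transcript length 4 members passed the adjusted p, namely Fos, Atf3, Dusp1 and Nr4a1, and in a fit of all 18 libraries none did. Egr1 lost the adjusted p in 3 of 6 fits with a library left out, Ier3 in 3 and Nr4a1 in 1, and with FI3OE replicate 3 or WT replicate 1 left out 5 members passed.

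In the same cultures 27 of 46 other immediate-early genes tested were higher and 2 lower on the adjusted p, with a median log2 fold change of 0.34, where 20.2% of all genes were higher. Those past both cutoffs were Ptgs2 (1.14), the inducible cyclooxygenase, Fosl1 (1.06), a FOS paralog, and Csrnp1 (1.04). Myc (-0.57) and Zfp36l1 (-0.14) were lower. Of 10 heat shock genes, 8 were higher on the adjusted p (against the same 20.2%) and Hspd1 lower, with Hspb1 (0.73), Hspa1b (0.72) and Hspa1a (0.67) leading. The summed macrophage markers, 2547 to 2617 CPM in FI3OE and 2596 to 2777 in WT, overlapped, and none of the 18 was called, with 4 higher and 3 lower on the adjusted p. In turn, the summed fibroblast and preadipocyte markers were at 14080 to 14340 and 13680 to 14240 CPM. The 12 adipocyte markers summed to 7871 to 8321 CPM in FI3OE, below the 8803 to 9002 of WT. Adipoq (997 to 1039 CPM against 741 to 789) and Plin1 (821 to 888 against 714 to 750) were higher in FI3OE. The part of the adipocyte genes in the members' differences was not tested. Reads from the mitochondrial genome were 1.01% to 1.16% of a library in FI3OE and 2.12% to 2.31% in WT, and with mitochondrial-genome and rRNA genes left out 7 members again passed the adjusted p.

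Set side by side, Fos, Junb and Nr4a1 were called lower with Irf3 deleted in vivo and were higher on the adjusted p with active IRF3 in culture. For Fos and Nr4a1 the TRAP call was lost with the replicate set as a term (log2 fold change -1.355 and -1.03, edgeR adjusted p = 0.111 and 0.0572). It was also lost with the replicate block (-1.385 and -0.94, edgeR adjusted p = 0.234 and 0.172). In replicates 1 and 2 the fold changes of Fos and Nr4a1 had the other sign (1.36 and 0.37). That of Junb was small there (-0.20, SE 0.25, edgeR adjusted p = 0.615), and its call was lost with the closest pairs summed (-0.98). Ier3 was higher on the adjusted p in both comparisons, but missed it in TRAP with the replicate block (0.0743) and with the closest pairs summed (0.0814), at an unmoved log2 fold change of 0.82, and its log2 fold change in replicates 1 and 2 was 0.06. Jun had the smallest log2 fold change of the members between FI3OE and WT (0.05). The experiments differ in fat depot, culture, RNA source and timing and were fitted apart, so the difference between them was not tested.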

How the data were processed

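The members and lists were chosen with earlier results of these data known. For each library the authors deposited Salmon's expected counts (NumReads), TPM and effective lengths of 118733 transcripts. Per the labels and the study's methods, RNA was depleted of rRNA by Ribo-Zero and reads were trimmed with fastp and quantified with Salmon 1.4.0 on GRCm38 transcripts, with correction for sequence and GC bias. The deposited TPM were summed per gene for levels between genes only. Here, 117850 transcripts were matched to genes by GENCODE M21 identifiers and 883 were kept as their own features, and counts were summed and rounded. Because multi-mapping reads are shared out by a model, counts are estimates.

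In R 4.3.3, edgeR 4.0.16 was applied with filterByExpr, TMM and its quasi-likelihood F-test, with p-values adjusted (Benjamini-Hochberg) over all genes tested, separately in each experiment. Cutoffs were an adjusted p of 0.05 and an absolute log2 fold change of 1. CPM are TMM-scaled. The interaction came from a fit with 1 mean per genotype and replicate set. A prior count of 2 was used for log2 CPM in correlations. Depth was 21541334 to 40490283 reads per library, so 3 reads, the counting limit, are near the lowest values of Fosb. DESeq2 1.42.0, other normalizations, filters, designs and left-out libraries were tried. Named genes were all members, Irf3, other immediate-early genes past both cutoffs (at most 10 by fold change), the 5 genes most like the members' mean, and the defining genes of marker lists. Myc, Zfp36l1, Creb1, Atf1, Elk3, Pnpla2, Fabp4, Cebpa, Retn and the heat shock genes were named after their values were seen. The fits were tested on simulated data, and figures were drawn with matplotlib 3.10.9.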

Additional observations from a re-analysis of the deposited data

Results flagged for a closer look

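The knockout effect differed between replicates 3 to 6 and replicates 1 and 2, by the interaction term, for 9 members (26.5% of all genes tested). The split was chosen with these data known. Ier3 and Nr4a1 missed the cutoff with the replicate block (edgeR adjusted p = 0.0983 and 0.0588) and with WT replicates 1 and 2 summed (0.107 and 0.0721). The difference in log2 fold change was -3.79 for Fos, -5.00 for Fosb, 1.11 for Jun, -1.21 for Junb, -4.25 for Egr1, -3.49 for Atf3, -1.13 for Ier2, 1.20 for Ier3 and -2.05 for Nr4a1.

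In the FI3KO group, Ier2 in TRAP replicate 6 lay far from the other 5 libraries, at 5.69 CPM against 6.67 to 7.18. Chance marks about 1 group in 20 in this way, and 22 groups of 6 libraries were examined.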

How the results depend on the processing

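Of 1208 values of single members under an alternative, 1126 counted as the same. For FI3KO or FI3OE against WT and for the interaction, this meant the same direction and side of the cutoffs. For differences between the sets it meant a value within 1 SD over libraries of the main value. Some of these differences crossed 2-fold, with log2 values as near 0 as 0.847 for Ier2 in WT, and -0.904 for Egr1 and -0.939 for Fosb in FI3KO. Directions turned in replicates 1 and 2 alone, where the FI3KO log2 fold change was 1.37 for Fos, 2.60 for Fosb, -0.30 for Jun, 2.37 for Egr1, 1.41 for Atf3, 0.38 for Ier2, 0.21 for Dusp1 and 0.38 for Nr4a1. Within those replicates, Ier3 ranged from -0.14 to 0.22 with a library left out, turning without FI3KO replicate 1 or WT replicate 1 (-0.07), and Dusp1 from -0.037, without FI3KO replicate 2, to 0.39. The cause was not tested.

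For FI3KO against WT in TRAP, 901 genes were called. The count was 574 with at least 10 counts in every library, which tests fewer genes, 1355 in the 18-library fit, 5095 on adjusted p alone, 1868 in replicates 3 to 6 and 191 in replicates 1 and 2, which hold fewer samples. It was 761 to 1115 with a library left out. Members called numbered 3, and 7 in replicates 3 to 6 only, 1 with the set as a term, 0 with the closest pairs summed (chosen after seeing the data) and 0 to 4 with a library left out. In SVF-derived adipocytes the gene count moved from 583 to 342 in the 18-library fit and to 5960 on adjusted p alone, and was 551 to 623 with a library left out. Members past the adjusted p numbered 7, but 4 with the length offset, 0 in the 18-library fit and 5 to 7 with a library left out, and 0 met both cutoffs in each such fit. The interaction count of 3613 genes became 2061 with WT replicates 1 and 2 summed, 1031 with the closest pairs summed and 2033 to 3874 with a library left out, with 5 to 9 members. In replicates 1 and 2, the 1 member called became 3 when those replicates were fitted alone, 0 under either summing and 0 to 1 with a library left out. Members past 2-fold between the sets numbered 6 to 7 in WT and 4 to 5 in FI3KO with a library left out.

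With the replicate block, 1 member was called in TRAP (Junb, adjusted p = 0.0295), 7 members passed the interaction and 0 were called in replicates 1 and 2. The block moved no other count of calls by over 1.5 times. Same-numbered libraries of the 2 groups correlated in their deviations at -0.29 to 0.10 in TRAP and -0.05 to 0.01 in SVF-derived adipocytes. These values show no pairing by number, but with so few libraries they cannot tell whether same-numbered libraries share an origin. In TRAP 0 of 6 FI3KO libraries, and in SVF-derived adipocytes 1 of 3 FI3OE libraries, correlated best with its own number. Depth limits Fosb, with as few as 2 reads in a library, and Atf3 in TRAP, with as few as 7.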
